A study of Mus musculus with 14 samples.

Results

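The alpha- and beta-tubulin genes expressed in nervous tissue were followed through 14 retinal ganglion cells (RGCs), each isolated from an adult mouse retina and measured alone. The 10 genes were chosen by name, 4 alpha (Tuba1a, Tuba1b, Tuba1c, Tuba4a) and 6 beta (Tubb2a, Tubb2b, Tubb3, Tubb4a, Tubb4b, Tubb5), among 18193 genes that the array could name. Every probe set assigned to 1 of them was read, which gave 17 probe sets for 8 of the 10 genes. Tuba1b and Tuba1c appeared only on probe sets shared with another gene, and 5 shared probe sets that name a member are described apart.

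The cells formed a single group, with no control or treatment. Parvalbumin-cre mice (129P2/OlaHsd) were mated with Ai9 Tomato reporter mice (C57BL/6 and 129 SV), and tdTomato+ cells were taken from papain-dissociated retinas of the adult offspring, of mixed background, with a glass pipette. These backgrounds are those of the labels, whereas the methods place the Cre line on segregating C57BL/6 and 129P2OlaHsd and the reporter on C57BL/6J. Cre follows the parvalbumin gene in this line, so only RGCs of types that switch that gene on could be sampled, and a picked cell keeps its soma but little of its axon. Each cell's RNA was copied from an oligo-dT primer, amplified by PCR and hybridised to 1 Affymetrix array, and the libraries had first been checked by PCR for the RGC gene Sncg and for the lack of rhodopsin and glutamine synthetase, which mark rods and Müller glia. No source used here names the animal of a cell or the facility that read its array, so the spread between cells mixes cell, animal and amplification, and no test was made.

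Microtubules are hollow polymers of alpha- and beta-tubulin dimers, and they carry transport along the axon that joins an RGC to the brain. Mammals hold several genes for each subunit, called isotypes, whose proteins are close to identical except in the acidic C-terminal tail, where most modifications are placed. In neurons Tuba1a is a main alpha isotype and Tubb3 a beta isotype that is commonly used to stain RGCs.

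A probe set was called detected in a cell when its MAS5 signal, a background-corrected intensity on a linear scale, was at least 8 times the median of that array. Cells differed in quality. Between 4191 (cell 5) and 11910 (cell 12) probe sets were detected per cell, and the median log2 signal of the 480 genes detected in all 14 cells lay between 13.06 (cell 4) and 14.64 (cell 5). These measures ran opposite to each other over the 14 cells (r = -0.90), so cells with fewer probe sets had brighter common genes. The ratio of the 3′ to the 5′ Gapdh probe set, a sign of RNA and cDNA integrity, lay between 1.09 and 2.61, with a median of 1.29 and the highest values, 1.95 and 2.61, in cells 13 and 14. RGC markers were present throughout, with 9 or 10 of 10 in every cell. Rod markers numbered 10 of 13 in cells 3 and 6 and 2 to 4 in the other cells, and Müller glia markers 0 to 5 of 10. The rod counts include Gnb1 in every cell, detected in all 14 at 17885 to 135722, and Rom1 in 9 cells. Glul, the gene of glutamine synthetase, was detected on the arrays of 8 cells at up to 15865. Some counts and correlations that rest on cells 3 and 6 are also given without them. All other values include both cells.

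Of the 8 isotypes with a probe set of their own, 7 were detected in all 14 cells, namely Tuba1a, Tuba4a, Tubb2a, Tubb3, Tubb4a, Tubb4b and Tubb5. Among all 18193 genes, 2.64% were detected in every cell. Without cells 3 and 6 the same 7 were detected in all 12 cells. The remaining isotype, Tubb2b, was detected in 8 cells, and 24.8% of all genes were detected in at least 7. Where an isotype had several probe sets, the brightest by mean log2 signal stands for it here. Probe sets differ in how well they bind, so the isotypes are compared between cells and not ordered by level.

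**Figure D1:**
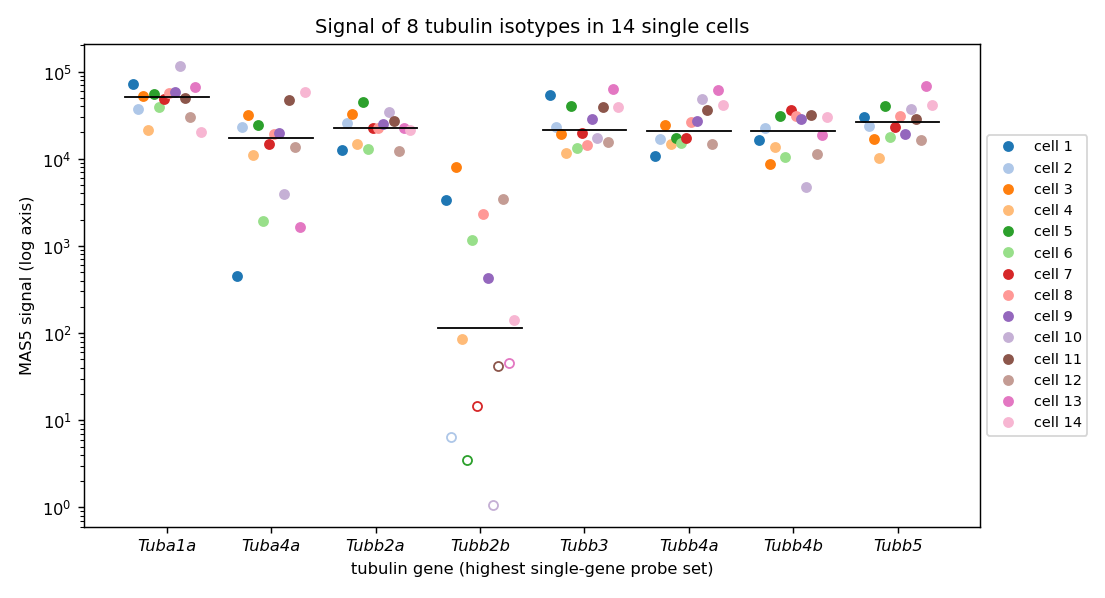
MAS5 signal (log axis) of the highest single-gene probe set of 8 tubulin isotypes in 14 cells, with filled points for detection, open points for no detection and a black line at the median over cells. For 6 isotypes the cells differ by up to 7.73-fold (Tubb4b), while Tuba4a falls to 446 in cell 1 and Tubb2b runs between 1.07 and 8143.

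The neuronal alpha isotype Tuba1a (probe set 1418884_x_at) had its lowest signal, 20519, in cell 14, a median of 50764 and its highest, 115992, in cell 10. Its mean log2 signal was 15.51 ± 0.68 (SD, n = 14 cells). The suffix _x_at marks a probe set whose probes can also match similar sequences, which for tubulins means near-identical copies. In each cell the signal was far above the threshold, and the difference between the extreme cells was 5.65-fold.

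Tuba4a encodes the alpha isotype whose C-terminal tyrosine is missing from the gene and has to be added by an enzyme. Its signal (1417373_a_at) had a median of 17116, with a lowest value of 446 in cell 1 and a highest of 58649 in cell 14. On this probe set the signals left a gap between 3931 and 11057. In cells 1, 6, 10 and 13 the signals were 446, 1923, 3931 and 1634, while the other 10 cells lay between 11057 and 58649. Cell 1 passed narrowly, since its threshold of 439.7 was the highest of all arrays.

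Library measures of these 4 cells were as follows. They had 7710, 9496, 6129 and 4362 probe sets detected, and over the 14 cells the Tuba4a signal had an r of 0.00 with that number. Their Gapdh 3′/5′ ratios were 1.55, 1.40, 1.36 and 1.95, all above the median of 1.29, and the r of Tuba4a with that ratio was -0.10. Their Tuba1a signals were 72488, 39567, 115992 and 67188, so cells 1, 10 and 13 had the 3 highest Tuba1a signals of all. Rod markers numbered 10 of 13 in cell 6 and 2 or 3 in the other low cells. Without cells 3 and 6, 3 of 12 cells were low. The part of library quality or rod transcripts in these values was not tested.

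A second Tuba4a probe set (1417374_at) was also detected in all 14 cells and had an r of 0.72 with the first. It too was low in cells 1, 6, 10 and 13, with signals of 621, 1612, 3410 and 595. The gap was smaller on it, with cell 12 at 5160 and cell 4 at 7461 next above cell 10. Cell 8 differed between the probe sets, with 19382 on the first and 252, the lowest of all cells, on the second. The third Tuba4a probe set (1417375_at) was detected in cells 3, 4, 7 and 11, at 1400 to 3809. Cell 8 therefore has no settled Tuba4a level, whereas the 4 low cells are low on both of the probe sets that were detected everywhere.

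Promoter sequence is shown for Tuba4a, whose signal was the most uneven of the isotypes found in every cell, and for Tubb3 and Tubb5, the pair with the highest correlation below. RefSeq (GRCm38.p6) gave a promoter for 9 of the 10 genes, all except Tubb2b. Each run covers 250 bases before to 50 bases after the annotated start, 5′ to 3′ on the gene's strand. Capitals mark matches, on either strand, to the GC box letters GGGCGG and the CCAAT box letters CCAAT. Tuba4a lies at chr1:75219245-75219544 on the minus strand, Tubb3 at chr8:123411303-123411602 on the plus strand and Tubb5 at chr17:35838252-35838551 on the minus strand.
Tuba4a: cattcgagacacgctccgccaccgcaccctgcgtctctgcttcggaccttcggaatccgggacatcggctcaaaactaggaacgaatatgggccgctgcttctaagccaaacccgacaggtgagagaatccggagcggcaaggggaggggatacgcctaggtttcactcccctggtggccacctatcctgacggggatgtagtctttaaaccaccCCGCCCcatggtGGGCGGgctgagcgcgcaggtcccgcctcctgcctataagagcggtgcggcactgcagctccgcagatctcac
Tubb3: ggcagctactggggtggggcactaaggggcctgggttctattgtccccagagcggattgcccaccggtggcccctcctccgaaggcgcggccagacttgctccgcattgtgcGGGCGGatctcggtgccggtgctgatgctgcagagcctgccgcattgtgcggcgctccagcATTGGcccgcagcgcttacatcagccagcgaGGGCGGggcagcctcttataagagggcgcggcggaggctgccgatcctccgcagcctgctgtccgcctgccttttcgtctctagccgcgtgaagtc
Tubb5: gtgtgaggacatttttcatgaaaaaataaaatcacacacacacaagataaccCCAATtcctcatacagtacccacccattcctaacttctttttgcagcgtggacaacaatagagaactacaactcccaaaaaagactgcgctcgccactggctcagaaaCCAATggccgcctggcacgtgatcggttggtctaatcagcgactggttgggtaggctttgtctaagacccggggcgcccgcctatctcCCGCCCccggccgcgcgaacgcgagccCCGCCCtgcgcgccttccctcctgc

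Tuba4a held 2 GC box matches and no CCAAT match, Tubb3 held 2 and 1, and Tubb5 held 2 of each. Over the 9 isotype promoters, 7 held a GC box match, 5 a CCAAT match and 2 a match to TATAAA. Among 32851 mouse promoters of the same length, the shares with a match were 35.7% for the GC box, 37.4% for CCAAT and 13.6% for TATAAA. The GC content was 62.0% for Tuba4a, 67.3% for Tubb3 and 55% for Tubb5, beside a median of 52.7% over all promoters. A match is a run of letters in this window and says nothing of what binds there. None of the 3 motifs searched contains another.

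Tubb3, the beta isotype found mainly in neurons, had signals (1415978_at) between 11640 in cell 4 and 63286 in cell 13, with a median of 21421. Cells 1, 5, 11, 13 and 14 were the high ones, from 38729 upwards, and the other 9 cells lay at 28548 or below. The mean log2 signal was 14.59 ± 0.79 (SD, n = 14 cells). Cells 5 and 13 are also the cells with the fewest probe sets detected, and Tubb3 had an r of -0.63 with that number. Its r with the log2 Gapdh 3′/5′ ratio was 0.57, and cells 13 and 14, with the highest ratios, are among its high cells. The part of these measures in the Tubb3 signal was not tested.

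Tubb5, a beta isotype found in most cell types, had signals (1416256_a_at) between 10132 in cell 4 and 67972 in cell 13, with a median of 26060. Its extreme cells were thus those of Tubb3. Of the 8 isotypes it followed the brightness of the arrays most closely, with an r of 0.84 with the median log2 signal of the common genes and -0.82 with the probe sets detected. Its r with the log2 Gapdh ratio was 0.59, and the part of array brightness and of this ratio was not tested.

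Tubb4a is a beta isotype enriched in brain, known in humans for variants that impair myelination. Its signals (1423221_at) lay between 10861 in cell 1 and 61283 in cell 13, with a median of 21065. Cells 10, 11, 13 and 14 were the high cells, from 36249 upwards, and all other cells lay at 27055 or below. Tubb4a had an r of -0.62 with the number of probe sets detected and of 0.61 with the median log2 signal of the common genes. Its r with the log2 Gapdh ratio was 0.48, and cells 13 and 14, with the highest ratios, are among its high cells. The part of these measures in the Tubb4a signal was not tested.

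Tubb2a is a beta isotype abundant in adult brain. Its uncorrected log2 signal had the smallest SD of the isotypes, with signals (1427838_at) between 12319 in cell 12 and 44261 in cell 5 and a median of 22436. The mean log2 signal was 14.42 ± 0.57 (SD, n = 14 cells). Its second probe set (1427347_s_at), also detected in all 14 cells at 4038 to 37305, had an r of 0.75 with the first. Cell 5, the array with the brightest common genes, was highest on both. Tubb2a had an r of -0.66 with the number of probe sets detected, and relative to the common genes its value in cell 5 was 0.01 from its median.

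Tubb4b is a broadly used beta isotype that is also built into cilia. Its signals (1423642_at) lay between 4737 in cell 10 and 36607 in cell 7, with a median of 20619.8. Cells 3 and 10 were the lowest, at 8766 and 4737, and the next lowest, cell 6, was at 10418. Cells 3 and 6 are the cells with the most rod markers, while cell 10 had 2. The part of the rod transcripts in these signals was not tested. The other 5 Tubb4b probe sets (1439416_x_at, 1456470_x_at, 1438622_x_at, 1456078_x_at and 1456031_at) were detected in 0 to 2 cells and never exceeded 180 in signal, so the presence of Tubb4b in all cells rests on 1 of its 6 probe sets.

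Tubb2b, a beta isotype of migrating and growing neurons, was the isotype that was not detected in every cell. Its probe set (1452679_at) gave 8143 in cell 3, 3421 in cell 12, 3338 in cell 1, 2344 in cell 8 and 1156 in cell 6. Cells 9, 14 and 4 followed with 432, 142 and 85.7, the last just above its threshold of 83.2. In the 6 cells without detection (2, 5, 7, 10, 11 and 13) the signals were 1.07 to 44.8. The division depends on the threshold, since at a fixed signal of 1000 Tubb2b was detected in 5 cells. Cells 3 and 6, with the most rod markers, are both among the cells with Tubb2b, and without them it was detected in 6 of 12 cells. The part of the rod transcripts in these signals was not tested.

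Cells with and without Tubb2b overlapped in library size. Tubb2b had an r of 0.21 with the number of probe sets detected. It was absent from cell 7 with 10483 probe sets and present in cell 14 with 5828, at 142 against a threshold of 64.2. Cells 5 and 13, with the fewest probe sets, 4191 and 4362, both lacked it. The part of library size in the Tubb2b signals was not tested. The neighbour of Tubb2b on the chromosome is Tubb2a, with no protein-coding gene between them, and Tubb2a was detected in every cell. The signals of the pair had an r of -0.48, the lowest of all isotype pairs, and of -0.71 without cells 3 and 6. With the median log2 signal of the common genes Tubb2a had an r of 0.64 and Tubb2b of -0.33. The part of array brightness in the r of the pair was not tested.

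**Figure D2:**
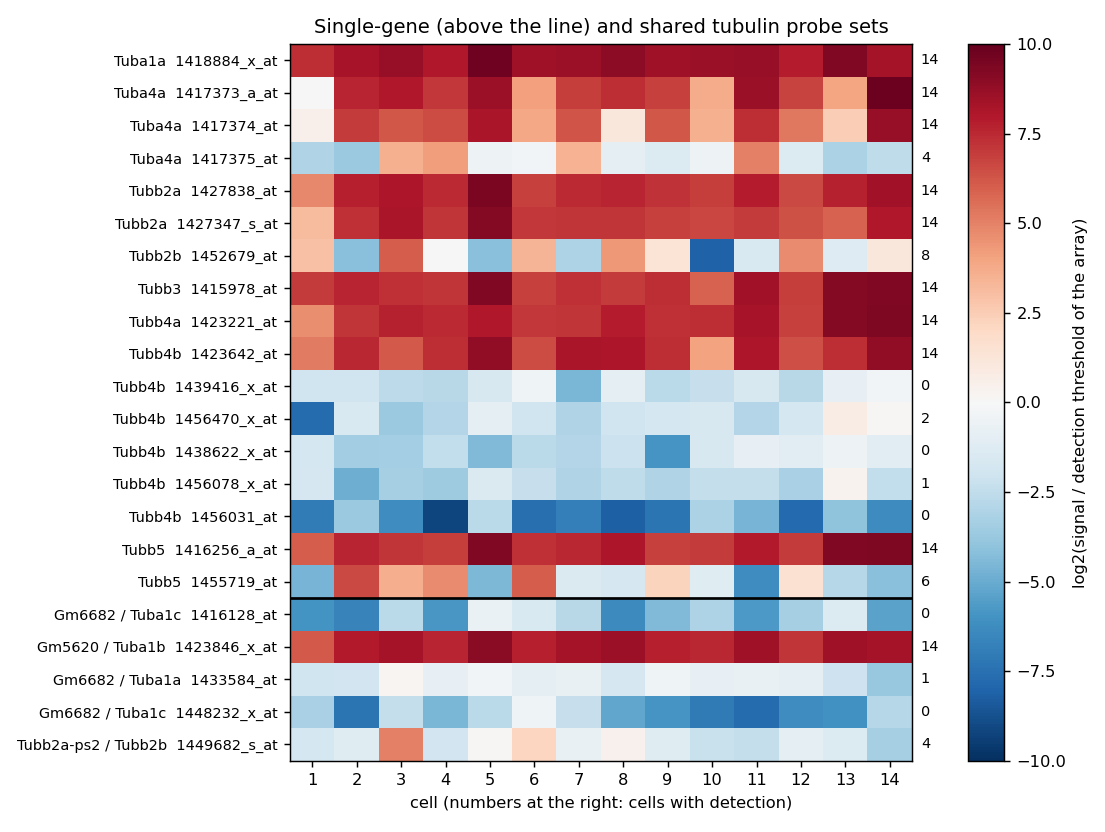
Log2 of the signal over each array's detection threshold for the 17 single-gene probe sets (above the black line) and 5 shared probe sets (below it), with cells in columns and the number of cells with detection at the right. Red is above the threshold and blue below it, and 9 of the 17 single-gene probe sets are red in all 14 cells.

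Of the 17 single-gene probe sets, 9 were detected in all cells, 10 in at least 7, 4 in 1 to 6 and 3 in none, where 18.7% of all 34945 single-gene probe sets were detected in at least 7. Tubb5 gave the sharpest disagreement. Its second probe set (1455719_at) was detected in cells 2, 3, 4, 6, 9 and 12 only, at 369 to 11678, and had an r of -0.70 with the first. Without cells 3 and 6 it was detected in 4 of 12 cells, with an r of -0.66. Over all 20 pairs of probe sets of the same isotype the median r was 0.28, and 14 pairs were above 0. The median was 0.26 without cells 3 and 6. Most of these pairs involve Tubb4b probe sets in the background.

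The shared probe sets carry no single gene name. The brightest (1423846_x_at) is assigned to Tuba1b, a broadly used alpha isotype, and to the pseudogene Gm5620. It was detected in all 14 cells at 16553 (cell 4) to 55805 (cell 10), and its r with Tuba1a was 0.87. Tuba1a lies between Tuba1b and Tuba1c on the chromosome with no other protein-coding gene between them, and both probe sets bear the _x_at suffix, so cross-matching of the alpha isotypes cannot be told apart from shared variation here. The pair assigned to Tuba1c and the pseudogene Gm6682 was detected in no cell, with signals up to 83.0. A probe set for Tuba1a and Gm6682 was detected in cell 3 alone, at 142, although the Tuba1a probe set of its own was bright in every cell.

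The probe set shared by Tubb2b and the transcribed pseudogene Tubb2a-ps2 (1449682_s_at) was detected in cells 3, 5, 6 and 8, with 3926 in cell 3 and 495 in cell 6. It was 127.6 in cell 1 and 67.4 in cell 12, below both thresholds, where the probe set of Tubb2b alone gave 3338 and 3421. A probe set of Tubb2a-ps2 alone (1419965_at) was detected in cells 3, 5 and 6, at 3603, 86.8 and 288, and the other probe sets of the pseudogene alone (1419966_at and 1449683_x_at) in none. Of the 4 cells with the shared probe set, 3 also had Tubb2b on its own probe set (3, 6 and 8) and 3 had the pseudogene (3, 5 and 6), with cell 5 close to its threshold of 65.3. Without cells 3 and 6 the shared probe set was detected in 2 cells. It missed cells that Tubb2b marked by itself.

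The spread of the isotypes detected in every cell was set beside that of all genes of that kind. For 6 of the 7 the SD of the log2 signal was below 1.15, the median SD of the 480 genes detected in all cells. Tubb2a had an SD of 0.57, with 2.92% of these genes below it, Tuba1a 0.68, Tubb5 0.70, Tubb4a 0.75, Tubb3 0.79 and Tubb4b 0.88. Tuba4a was the exception with 2.04, above 91.9% of them. Bright genes varied less. Among the 157 genes with a mean log2 signal of at least 14, the median SD was 0.81, and 5 of the 6 isotypes in that set lay below it. With the brightness of the arrays taken out, as described next, 4 of the 6 lay below the median of the bright genes, 0.67, with Tuba1a at 0.69 and Tubb4b at 0.87 above it. With all probe sets of a gene averaged, the SD of Tubb5 was 1.90 and 5 of the 7 isotypes lay below 1.15.

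**Figure D3:**
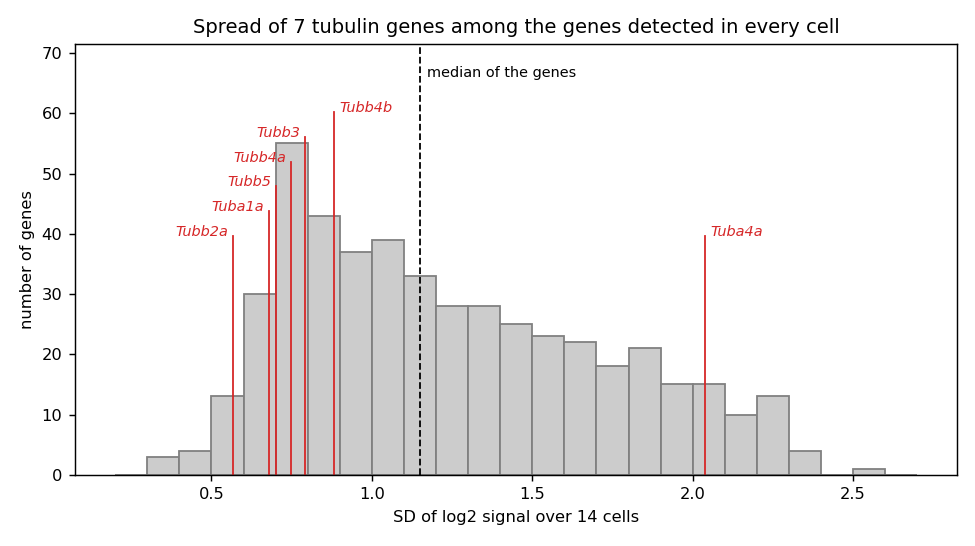
Histogram of the SD of log2 signal over 14 cells for the 480 genes detected in every cell, with the 7 tubulin isotypes among them as red lines and the median of the genes, 1.15, as a dashed line. Only Tuba4a, at 2.04, lies to the right of the median.

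The brightness of each array was then taken out by subtracting the median log2 signal of the 480 common genes and centring each isotype on its own median. On this scale Tubb2a and Tubb5 stayed within 1 log2 unit of their median in all 14 cells, Tubb3 and Tubb4a in 13, Tuba1a in 12, Tubb4b in 10 and Tuba4a in 8. The SD of Tubb5 was 0.40, beside 0.70 for the plain log2 signal, and it was then the smallest, with 0.45 for Tubb2a. Single cells stood out by isotype. In cell 1 Tuba4a stood at -5.06 relative to its median and Tubb3 at 1.58. In cell 10 Tuba4a and Tubb4b stood at -2.22 and -2.17, while Tuba1a and Tubb4a stood at 1.28 and 0.99. Cells 1, 6, 10 and 13 were thus the low cells of Tuba4a on this scale too, with -2.92 in cell 6 and -4.32 in cell 13. Cell 14 had the highest Tuba4a value, 1.31, and the lowest Tuba1a value, -1.59.

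**Figure D4:**
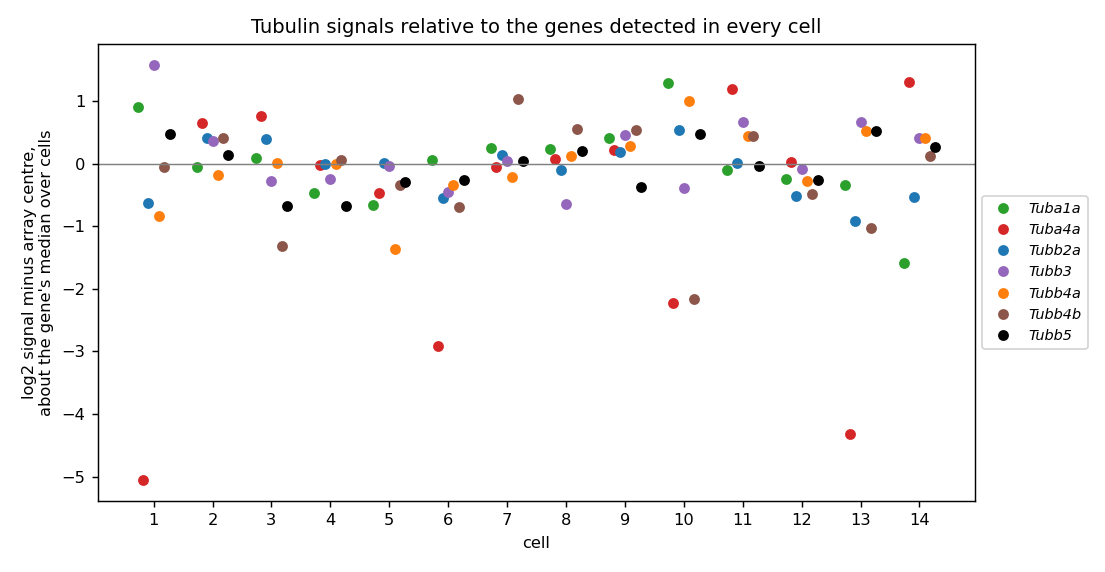
Log2 signal of 7 tubulin isotypes in each cell minus the median log2 signal of the genes detected in every cell, centred on the isotype's median over the 14 cells. Tuba4a lies far below 0 in cells 1, 6, 10 and 13, and Tubb4b in cell 10. Tubb2b, not detected in 6 cells, is left out.

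Of 4 differences computed between isotypes found everywhere, that of the alpha isotypes Tuba4a and Tuba1a was the most uneven. About its median over cells, the log2 difference between Tuba4a and Tuba1a was lowest in cell 1, at -5.99, and highest in cell 14, at 2.87, with an SD of 2.42. That of Tubb4b and Tubb4a was lowest in cell 10, at -3.20, and highest in cell 7, at 1.21. Tubb5 and Tubb3 had the steadiest of the 4, between -0.91 in cell 1 and 1.07 in cell 10, with an SD of 0.56. These differences are within a probe set pair between cells and are not ratios of transcripts.

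Correlations were computed on log2(signal + 32) over the 14 cells. The points share amplification and array brightness, and r is given as a description. Over the 28 pairs of isotypes the median r was 0.21, with 16 pairs above 0. Over the 21 pairs of isotypes detected in all cells it was 0.30, beside 0.11 over all pairs of the 480 common genes. The sets differ in brightness, since 6 of these 7 isotypes but 157 of the 480 genes had a mean log2 signal of at least 14. The highest was Tubb3 with Tubb5 (r = 0.73), followed by Tubb4a with Tubb5 (r = 0.64). With arrays centred on the common genes these fell to 0.42 and 0.28, and the median over the 28 isotype pairs to -0.06. With quantile normalization that median was -0.004. Tuba1a and Tuba4a had an r of -0.44, the same after centring. Without cells 3 and 6 the r of Tubb3 with Tubb5 was 0.70 and the median over all pairs 0.14. The Tubb2b correlations were below 0 with each of the 7 other isotypes.

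The genes most like 4 of the isotypes over the cells were found among 6883 genes detected in at least 4 cells. For Tubb3 they were Serinc1 (r = 0.85), Ndfip1 (r = 0.85), an adaptor of ubiquitin ligases, and Rab6b (r = 0.84), a small GTPase of Golgi transport in neurons, all detected in 14 cells. For Tubb4b they were Ctsb (r = 0.86), a lysosomal protease, Naa50 (r = 0.84) and Pik3r4 (r = 0.82), detected in 14, 10 and 8 cells. For Tubb2b they were Mrps11 (r = 0.87), a mitochondrial ribosomal protein, Eny2 (r = 0.84) and Acadm (r = 0.83), an enzyme of fatty acid oxidation, detected in 9, 4 and 5 cells. For Tuba4a they were Plrg1 (r = 0.76), a splicing factor, Rexo4 (r = 0.75) and Fbxo31 (r = 0.74), detected in 10, 9 and 9 cells. These are the 3 highest of many values for each isotype and describe the 14 cells only.

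Other parts of the tubulin system were read from gene lists by role. Over 57 measured genes, 33 were detected in at least 7 cells (57.9%), where 24.8% of all genes reached 7 cells. Detection in no cell was found for 11 of the 57, and for 7605 of all 18193 genes. Tubulin folding was the most complete list, with 19 of 20 in at least 7 cells. Tbcb, a cofactor that binds alpha-tubulin, Tcp1, a subunit of the CCT chaperonin that folds both subunits, and Pfdn5 and Pfdn6, subunits of the prefoldin complex that hands nascent chains to CCT, were detected in all 14 cells. Tcp1 signals lay between 2575 and 38560, and the other 7 measured CCT subunits were detected in 11 to 13 cells. Tbcc, a cofactor that acts with the others to form the dimer, was detected in cells 4, 7 and 12.

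Of 12 enzymes or partners that add modifications to tubulin, 5 reached 7 cells (41.7%, beside 24.8% of all genes). Of the same 12, 4 were detected in none, as were 7605 of all 18193 genes. Ttll7, a glutamylase that acts on beta-tubulin, was detected in all 14 cells at 774 to 39347, and Ttll1, the catalytic subunit of a tubulin polyglutamylase, in 12. The tyrosine ligase Ttl, which restores the terminal tyrosine of alpha-tubulin, and Atat1, which acetylates alpha-tubulin inside the microtubule lumen and not on the tail, were each detected in 9 cells. Of 8 measured genes that remove modifications, 3 reached 7 cells (37.5%), which with so few genes is near the 24.8% of all genes. In no cell were 2 of these 8 detected, beside 7605 of all 18193 genes. Sirt2, a deacetylase, and Agtpbp1, a deglutamylase whose loss in mice leads to degeneration of Purkinje cells and photoreceptors, were detected in 13 cells each, and the deacetylase Hdac6 in 8. The carboxypeptidase Vash2 and its partner Svbp, which remove the tyrosine, were detected in 3 and 2 cells. Vash1 and Agbl2, also on the list of genes that remove modifications, had no single-gene probe set, so their presence is not known.

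**Figure D5:**
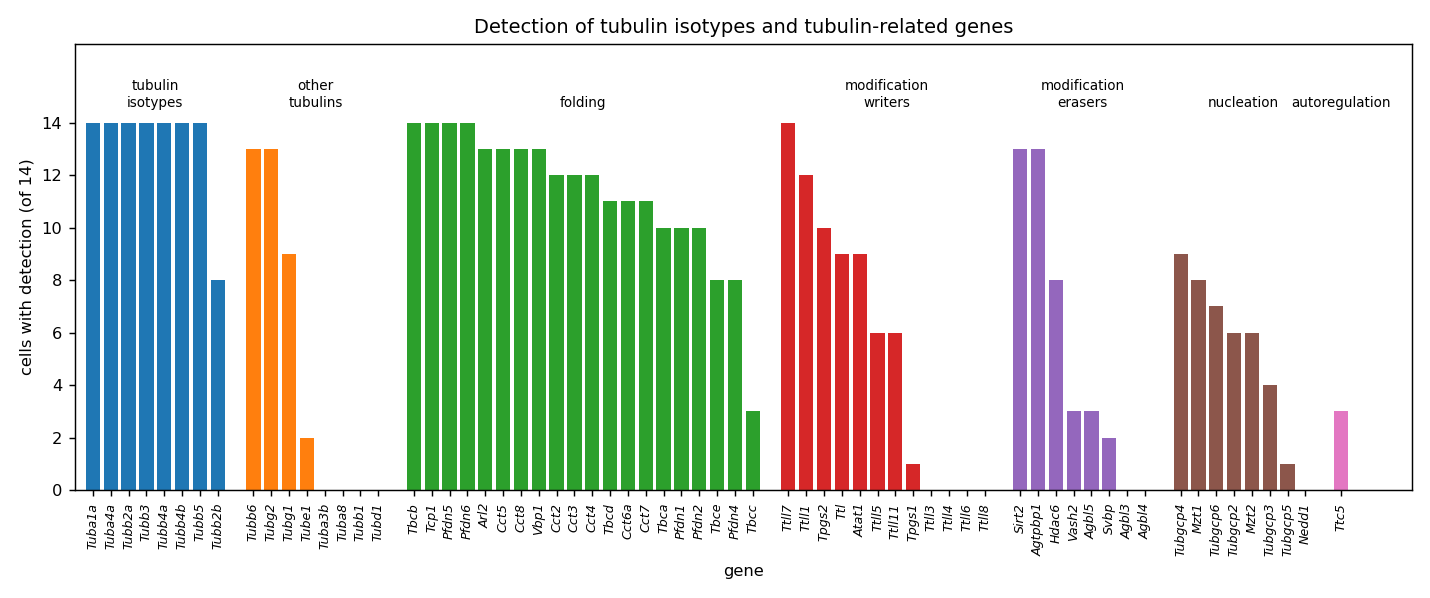
Number of cells (of 14) in which each of 8 tubulin isotypes and 57 related genes was detected, grouped by list. The isotypes and the folding genes stand highest. In no cell were 11 of the related genes detected, beside 7605 of all 18193 genes.

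Among 8 other tubulins 3 reached 7 cells (37.5%), as did 3 of 8 nucleation genes, and with so few genes these shares are near the 24.8% of all genes. The gamma-tubulins Tubg1 and Tubg2, which seed new microtubules, were detected in 9 and 13 cells. Tubb6 was detected in 13 cells by 1 of its probe sets, at up to 10111, and in none by the other, with signals up to 47.6. Tuba8, Tubb1, Tubd1 and Tuba3b were detected in no cell, but 2 probe sets assigned to both Tuba3a and Tuba3b were detected in 12 and 13 cells at up to 1255, so their source is not settled. The 3 nucleation genes, which serve the gamma-tubulin ring, were Tubgcp4, Mzt1 and Tubgcp6, in 9, 8 and 7 cells. Ttc5, a factor that recognises new tubulin chains and triggers decay of their mRNA, was detected in cells 2, 3 and 4.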

How the data were processed

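The deposited values were signal intensities on a linear scale, made by the authors with MAS5 from 14 arrays of 1 cell each. The MAS5 version was not given in the sources used here. The 64 control probe sets were left out, and 45037 were read. Names came from the array's annotation, with symbols brought up to date from gene numbers in the RefSeq table of GRCm38.p6. In the annotation 34945 probe sets had 1 gene symbol (34741 matched), 932 had several and 9160 were unnamed here.

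Detection was a signal of at least 8 times the array median. Correlations used log2(signal + 32). Array intensities give no read depth. The number of arrays, 14, limits the precision, as do amplification and the disagreement of probe sets of the same gene. All cells formed 1 group, and no test was run. Calculations used Python 3.11.15, numpy 2.4.6 and pandas 2.3.3, and the scripts were tested on simulated data. The 10 genes were given by name. All single-gene probe sets of these genes were named, related genes by counts with examples, and the 3 most similar genes for Tubb3 and for the 3 isotypes with the largest SD. These genes, lists and rules were chosen with earlier results of these data known. Alternatives changed the threshold, pseudocount, normalization, choice of probe set and cells.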

Additional observations from a re-analysis of the deposited data

How the results depend on the processing

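Over the alternatives tried, 5 to 7 isotypes were detected in all cells, against 7, and 9 to 11 isotype probe sets in at least 7 cells, against 10. Averaging all probe sets of a gene gave the 5, left Tubb4b detected in 1 cell, raised the SD of Tubb5 to 1.90 and moved the median r between isotypes to -0.11, against 0.21. Tuba4a was detected in 13 cells at 16 times the array median, at a fixed signal of 1000 and with probe sets averaged, against 14. Tubb2b was detected in 5 cells at a fixed signal of 1000, against 8. Quantile normalization, which removes brightness differences between arrays, gave a median SD over the 8 isotypes of 0.59, against 0.77, and an r of 0.56 for Tubb3 with Tubb5, 0.11 for Tubb4a with Tubb5 and -0.18 for Tuba1a with Tuba4a. Without cells 5 and 13 the r of Tubb3 with Tubb5 was 0.57. Centring on the array median, which lies in the background, gave a median SD of relative levels of 1.08, against 0.64. The comparison with the 157 bright genes and the values of single pairs and probe sets without cells 3 and 6 or under other settings were added after seeing the data. No paired analysis was possible because all cells form 1 group.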
